A study of Mus musculus with 2 samples.

Results

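The genes described here encode the machinery that licenses DNA for replication: the 6 subunits of the MCM2-7 helicase (Mcm2, Mcm3, Mcm4, Mcm5, Mcm6 and Mcm7), the loaders Cdc6 and Cdt1, the replisome factor Mcm10 and the sliding clamp Pcna. They were taken by gene symbol and form 10 of the 50559 genes counted. The set was selected on the measured values themselves, because Mcm6 stood apart from its hexamer partners between the libraries, so the members' library ratios and the comparison of Mcm6 with its partners are descriptions. By the labels, the RNA came from live GFP-positive keratinocytes sorted by flow cytometry from dorsal skin of Polr2b f/f-GFP; K14-Cre mice at postnatal day 21. The hair follicles were in telogen, their phase of rest. The product of Polr2b belongs to RNA polymerase II, and the K14 (keratin 14) promoter drives Cre in basal epidermal cells and the lineages that descend from them. Total RNA freed of ribosomal RNA was sequenced from 2 replicate libraries that form 1 group, all of this genotype, age and sort. The labels leave unsaid whether each library is 1 animal or a pool.

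Replication is licensed when the origin recognition complex and Cdc6 hold Cdt1-bound MCM2-7 rings against DNA, and the rings are closed around the duplex. Each ring carries 1 copy of each of its 6 subunits. Loading takes place before S phase, and loaded rings are activated as helicases in S phase by kinases, Cdc45 and the GINS complex. Many of these genes are targets of E2F transcription factors, and in skin their proteins mark basal and follicular cells that are in the cell cycle or can enter it.

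Replicate 1 held 36692204 counts and replicate 2 held 33489967. The libraries differed in sex-linked RNA. Xist, the RNA of X inactivation, was counted 112587 times in replicate 1 and 11 times in replicate 2, while the Y-linked Uty had 0 counts in replicate 1 and 2394 in replicate 2. Replicate 1 thus held female RNA and replicate 2 male RNA, so the libraries came from different animals. In every library ratio below, sex cannot be told apart from other differences between the libraries. Markers of the labelled cell type were present, as the 8 basal keratinocyte genes summed to 11436 CPM (counts scaled to a common total per library) in replicate 1, against 15672 CPM in replicate 2. Fibroblast and myeloid markers were abundant as well, and they are set beside the licensing genes below. In replicate 1 the 10 fibroblast genes summed to 14351 CPM, above the basal sum. A two-sided sign-flip test over 2 libraries has 0.5 as its smallest p, and levels are therefore given with their spread and no p. In bulk RNA, fewer cells of a type and less RNA per cell cannot be told apart.

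Of the loaders, Cdc6 was scarce and uneven and Cdt1 was moderate and even. Cdc6, the ATPase that joins the origin recognition complex to start loading, had 364 counts in replicate 1 and 98 in replicate 2. These were 4.89 TPM in replicate 1 and 1.45 TPM in replicate 2, where TPM scales each count by the deposited gene length and the library. Its CPM ratio of replicate 1 over replicate 2 was 3.39 (95% exact interval 2.71 to 4.28). Intervals given here cover counting error only. Cdt1, which carries the MCM2-7 ring to the origin, had 24.6 TPM in replicate 1 and 20.3 TPM in replicate 2, a ratio of 1.22 (1.09 to 1.36). The loaders thus lay far apart per length in both libraries, and the lower Cdc6 also had the larger library ratio.

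Among the hexamer genes, Mcm6 held a different place in each library. Mcm2, whose tail binds histones, had 18.4 TPM in replicate 1 and 13.3 TPM in replicate 2. Mcm3, which in budding yeast contacts the origin recognition complex and Cdc6 during loading, had 38.3 TPM in replicate 1 and 20.1 TPM in replicate 2. Mcm4, which with Mcm6 and Mcm7 forms a subcomplex that unwinds DNA in vitro, had 34.4 TPM in replicate 1 and 24.8 TPM in replicate 2. All 3 were lower in replicate 2, Mcm3 the most. Mcm5, whose contact with Mcm2 forms the gate of the ring, had 32.5 TPM in replicate 1 and 18.8 TPM in replicate 2. Mcm7, the partner of Mcm4 in that subcomplex, had 30.2 TPM in replicate 1 and 17.4 TPM in replicate 2. Mcm6 had 35.7 TPM in replicate 1 and 8.75 TPM in replicate 2, from 2345 counts in replicate 1 and 523 in replicate 2. It was therefore the second highest of the 6 in replicate 1 and the lowest in replicate 2. The 6 genes spanned 2.08-fold in replicate 1 and 2.84-fold in replicate 2, and without Mcm6 the span in replicate 2 was 1.87-fold.

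**Figure D1:**
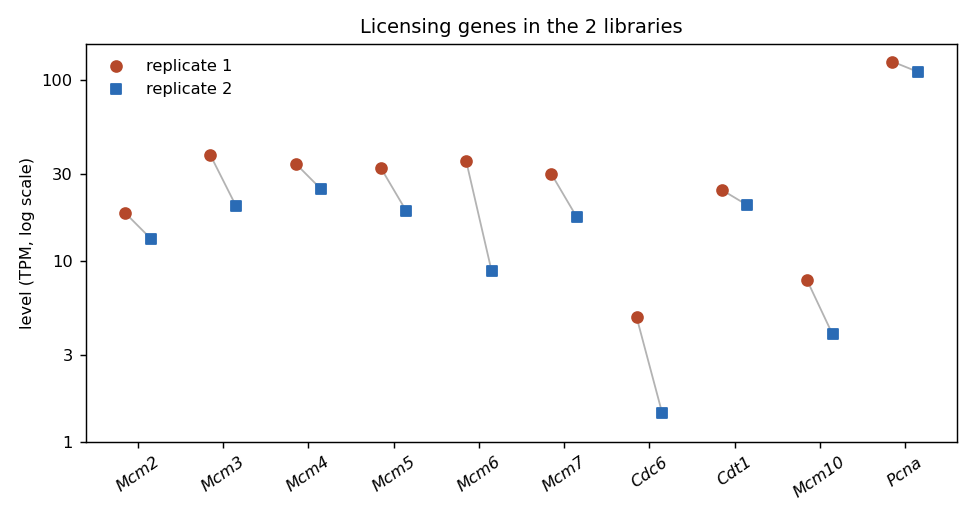
Level of each licensing gene in TPM (log axis), with a circle for replicate 1 and a square for replicate 2, joined by a line. All 10 genes were higher in replicate 1, and Mcm6 (35.7 TPM in replicate 1, 8.75 TPM in replicate 2) and Cdc6 (4.89 TPM in replicate 1, 1.45 TPM in replicate 2) have the longest lines.

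By CPM ratio of replicate 1 over replicate 2, Mcm6 was first of the hexamer genes. It had 4.09 (3.72 to 4.51), and Mcm3 followed with 1.91 (1.76 to 2.08). Mcm5 had 1.74 (1.60 to 1.89) and Mcm7 had 1.74 (1.60 to 1.90). Mcm2 had 1.39 (1.25 to 1.54) and Mcm4 had 1.39 (1.29 to 1.49). The interval of Mcm6 overlapped that of no partner, but the set was chosen on this contrast and the intervals cover counting error only. Mcm5 and Mcm7 shared nearly the same interval, as did Mcm2 and Mcm4. Among 15833 detected genes, meaning those that reached 1 CPM in each library, Mcm6 had the 9th largest ratio and Cdc6 the 18th. Among the 9914 genes with a mean of 10 CPM or more, Mcm6 was the 4th.

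Set against each partner within a library, per kilobase of deposited length, Mcm6 was at 1.95 of Mcm2 (1.80 to 2.10), 1.18 of Mcm7 (1.11 to 1.26) and 1.10 of Mcm5 (1.03 to 1.17) in replicate 1. There it was at 1.04 of Mcm4 (0.977 to 1.11) and 0.933 of Mcm3 (0.877 to 0.994), so it lay near 4 of the 5 partners. In replicate 2 it was below all 5, at 0.660 of Mcm2 (0.586 to 0.743), 0.504 of Mcm7 (0.450 to 0.563) and 0.466 of Mcm5 (0.418 to 0.520). It was at 0.435 of Mcm3 (0.389 to 0.486) and 0.352 of Mcm4 (0.317 to 0.391). Over the geometric mean of the partners Mcm6 had a log2 ratio of 0.26 in replicate 1 and -1.08 in replicate 2 (mean -0.41 ± 0.95, SD, n = 2). The other subunits, each set against the remaining 5, moved by between -0.53 (Mcm2 and Mcm4) and 0.02 (Mcm3) between the libraries on the same log2 scale, and Mcm6 by 1.34.

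The placing of Mcm6 within a library depended on the gene length used. The difference between the libraries cannot, since a length cancels in it. The deposited length of Mcm6 was 4431 bases, and its first-numbered GENCODE transcript had 2910 bases. Per kilobase of the first-numbered transcripts, an alternative chosen after seeing the data, Mcm6 stood at 1.75 of the partners' geometric mean in replicate 1 and 0.693 in replicate 2, and ranked 1 of the 6 in replicate 1 and 5 in replicate 2. By deposited length it stood at 1.20 in replicate 1 and 0.473 in replicate 2.

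**Figure D2:**
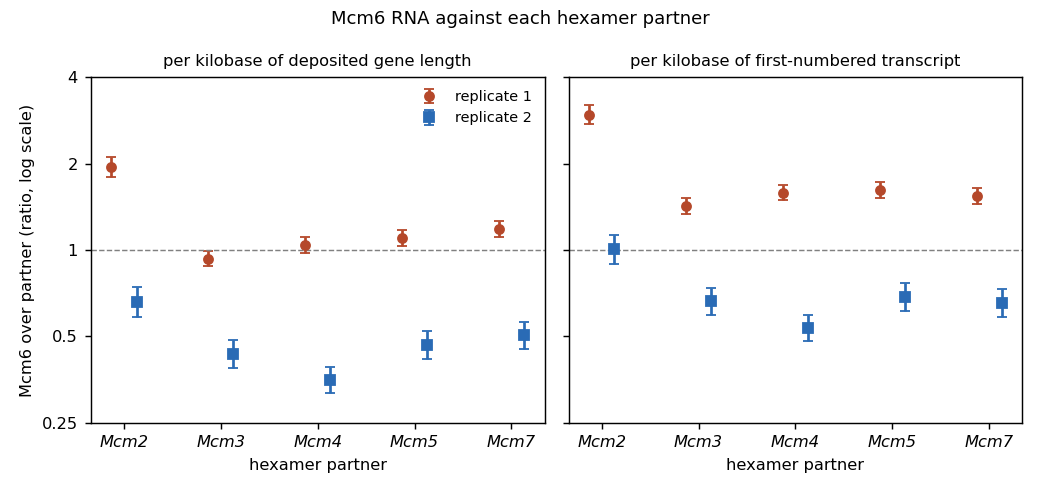
Ratio of Mcm6 to each hexamer partner per kilobase (log axis) in replicate 1 (circles) and replicate 2 (squares), with 95% exact intervals for counting error, by deposited gene length at left and by the length of the first-numbered transcripts at right. Moving to the other length shifts both libraries' points alike, and the circles lie above the squares for all 5 partners.

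Of the remaining members, Pcna was the most abundant and Mcm10 was low. Mcm10, which acts with the activated helicase at the fork, had 477 counts in replicate 1 and 218 in replicate 2, or 7.82 TPM in replicate 1 and 3.92 TPM in replicate 2. Its ratio was 2.00 (1.70 to 2.36). Pcna, the clamp that tethers polymerases and on which Cdt1 is marked for destruction, had 126 TPM in replicate 1 and 110 TPM in replicate 2. Its ratio of 1.14 (1.07 to 1.21) was the smallest of the set. By mean TPM the order was Pcna at 118 ± 10.9, Mcm4 at 29.6 ± 6.77, Mcm3 at 29.2 ± 12.9, Mcm5 at 25.6 ± 9.74, Mcm7 at 23.8 ± 9.06, Cdt1 at 22.4 ± 3.08, Mcm6 at 22.2 ± 19.1, Mcm2 at 15.8 ± 3.61, Mcm10 at 5.87 ± 2.75 and Cdc6 at 3.17 ± 2.44 (SD, n = 2). Only Pcna over Mcm4 and Mcm2 over Mcm10 were neighbours separated by more than the larger of their SDs. Among the detected genes, Pcna lay at the 93.9 percentile of TPM in replicate 1 and the 93.0 percentile in replicate 2, and Mcm6 at the 75.0 percentile in replicate 1 and the 41.6 percentile in replicate 2.

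All 10 members had more counts in replicate 1 than the library totals give. By the exact binomial test (two-sided, Benjamini-Hochberg adjusted) all 10 were called higher there, in a table where 27.2% of the 23690 tested genes were called higher and 16.9% lower. By edgeR's exact test, which adds the spread between the libraries, 1 of 10 (Mcm6) was called higher, and at an unadjusted p under 0.05 so was Cdc6. That test called 0.19% of genes higher and 0.0886% lower, and 1702 of the 23690 had an unadjusted p under 0.05 in either direction. Since these ratios chose the set, the counts are a description. The tests compare 2 libraries of 1 group and no condition. The members' median log2 ratio was 0.80 with 0.09 for all tested genes by library totals, 0.72 with 0.01 by TMM, and 1.17 with 0.45 when scaled to junction genes. The latter are 11 desmosome and junction genes, whose median log2 ratio by library totals was -0.33. The split of called genes over the table moved with the scaling, from 6443 higher and 3993 lower by totals to 5068 and 5381 by TMM and 14112 and 858 by junction genes.

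**Figure D3:**
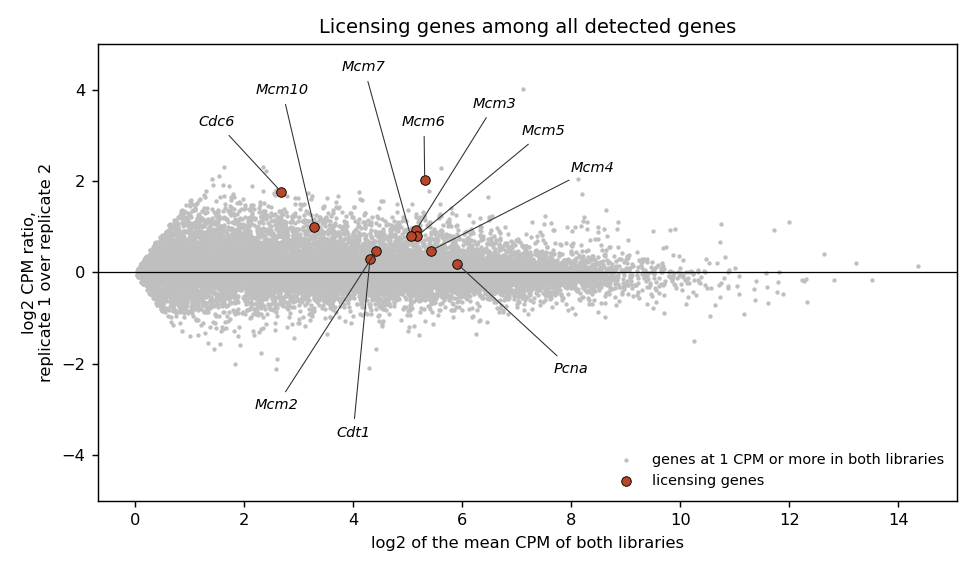
Log2 CPM ratio of replicate 1 over replicate 2 (vertical) against the log2 mean CPM (horizontal) for the 15833 detected genes, with the licensing genes named; 1 gene lies outside the vertical range. Mcm6 at 2.03 and Cdc6 at 1.76 lie at the upper edge of the cloud, and Pcna at 0.19 lies within it.

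The windows around the start sites are shown because 6 of them hold letters of the E2F motif, the family whose targets include these genes. RefSeq promoters on build GRCm38.p6, from 250 bases before to 50 after the start, were matched for 9 of the 10 members, with 2 windows for Mcm7. The counts were made on another build and no count is placed on these coordinates. The stretches below run 5′ to 3′ on the gene's strand to 30 bases past the start, with TTTCCCGC or TTTGGCGC in either orientation in capitals. They lie at chr1:128359676-128359835 (minus strand) for Mcm6, chr11:98907993-98908180 (plus strand) for Cdc6, chr8:75109340-75109538 (plus strand) for Mcm5, chr5:138171854-138172068 (minus strand) for the first Mcm7 start and chr1:20820283-20820382 (minus strand) for Mcm3.
Mcm6: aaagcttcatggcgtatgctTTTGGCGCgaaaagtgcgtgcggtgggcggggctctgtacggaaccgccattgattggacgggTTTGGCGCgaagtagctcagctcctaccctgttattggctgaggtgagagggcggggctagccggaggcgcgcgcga
Cdc6: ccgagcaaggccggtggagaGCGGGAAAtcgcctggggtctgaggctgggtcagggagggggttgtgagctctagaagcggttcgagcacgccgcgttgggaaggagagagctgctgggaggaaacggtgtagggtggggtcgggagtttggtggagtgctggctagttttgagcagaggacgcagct
Mcm5: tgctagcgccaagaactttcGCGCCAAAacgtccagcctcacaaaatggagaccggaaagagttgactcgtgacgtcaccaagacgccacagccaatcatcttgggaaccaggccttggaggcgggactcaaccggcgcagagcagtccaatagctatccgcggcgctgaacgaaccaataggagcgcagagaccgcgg
Mcm7: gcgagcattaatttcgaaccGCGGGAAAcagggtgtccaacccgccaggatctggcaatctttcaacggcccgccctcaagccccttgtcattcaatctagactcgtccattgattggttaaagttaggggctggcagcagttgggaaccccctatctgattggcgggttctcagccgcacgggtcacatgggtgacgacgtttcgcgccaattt
Mcm3: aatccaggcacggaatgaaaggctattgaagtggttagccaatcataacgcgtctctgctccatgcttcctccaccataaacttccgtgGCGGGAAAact

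Mcm6 and Mcm3 each had 2 such matches in the window, and Mcm5, Mcm7, Cdc6 and Cdt1 each had 1. In Mcm6 both matches were upstream, with first bases at -110 and -47 from the RefSeq start. The first 30 bases after that start were found in GENCODE transcripts for 8 of the 10 windows and not for those of Mcm6 and Mcm5, so positions there rest on RefSeq alone. Those of Mcm3, at 20 and 39, and that of Cdt1, at 33, lay after the start. E2F letters were thus in 60% of the members' windows and in 1.56% of the 32851 windows of the table. CCAAT, the letters bound by NF-Y, were in 8 of 10 member windows and in 37.4% of all windows. TTTGAA, the CHR element of late cell-cycle genes, was in 1 of 10 (Mcm2) and in 17.9% of all. Both strands were searched, and no match of 1 motif overlapped a match of another in the members' windows. In windows of the other replication genes E2F letters were in 17 of 76. In those of 16 mitosis genes they were in 0 of 15, and TTTGAA was in 11 of 15. E2F letters were in the windows of Mcm6 and Cdc6, with the largest library ratios, and in that of Cdt1, with one of the smallest. A match is a description of letters and not of a bound site.

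**Figure D4:**
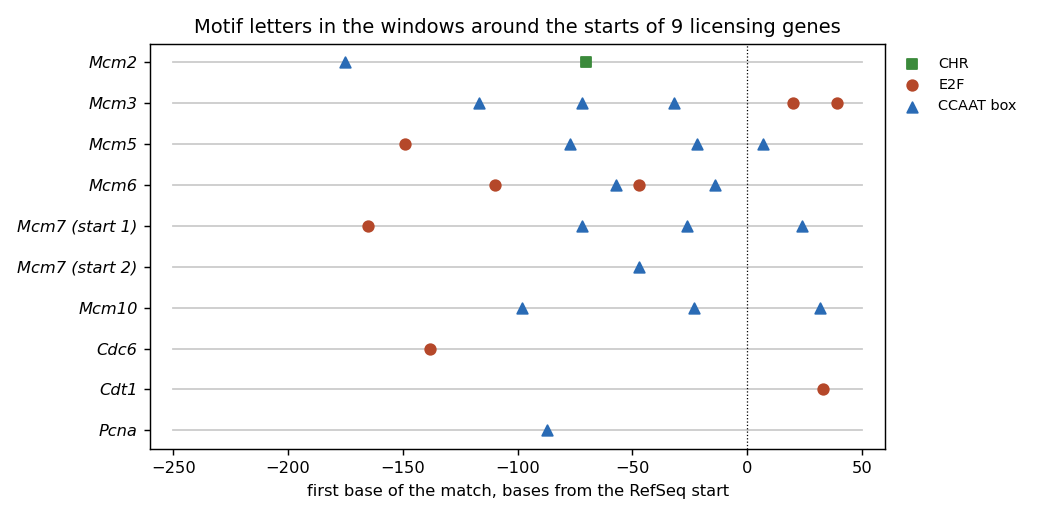
First base of each match to the E2F (circles), CCAAT (triangles) and CHR (squares) letters in bases from the RefSeq start, for the 10 windows of 9 licensing genes. E2F letters appear in 6 windows and those of Mcm6 lie at -110 and -47.

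Outside the members, 79 other replication genes were taken in lists by function. By the same exact binomial test 55 were higher in replicate 1, or 69.6% beside 27.2% of all tested genes, and 3 were lower beside 16.9%. Their median log2 ratio was 0.41, beside 0.09 over all tested genes. edgeR's exact test called 0 of them, and 6 were higher and 0 lower at an unadjusted p under 0.05. Such a p was reached in either direction by 1702 of the 23690 tested genes, a share near that of 6 in 79. The list was chosen with these libraries' results known.

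Of the 6 genes of the origin recognition complex 5 were higher and 0 lower, with a median log2 ratio of 0.41. Over all tested genes 27.2% were called higher and 16.9% lower. Orc6 had 23.3 TPM in replicate 1 and 18.8 TPM in replicate 2, and Orc1, the ATPase subunit that comes and goes with the cell cycle, had 3.99 TPM in replicate 1 and 2.90 TPM in replicate 2. Orc5, the member not called, had 19.9 TPM in replicate 1 and 20.8 TPM in replicate 2. Of 7 genes that inhibit or remove licensing factors 2 were higher and 0 lower, a share near the 27.2% of all tested genes, and their median of 0.07 lay beside 0.09 over all. Dtl, the receptor that delivers Cdt1 to a ubiquitin ligase on the clamp, was higher at 5.96 TPM in replicate 1 and 1.94 TPM in replicate 2. Gmnn, which encodes the Cdt1 inhibitor geminin, was not called, with 2.83 TPM in replicate 1 and 2.18 TPM in replicate 2. The other gene called was Ddb1, an adaptor of the same ligase, at 266 TPM in replicate 1 and 256 TPM in replicate 2, a log2 ratio of 0.05 that turned to -0.02 under TMM and under DESeq2 size factors.

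Of 5 other genes named for the MCM family or for binding it, 3 were higher (beside 27.2% of all tested genes) and 1 was lower, with a median log2 ratio of 0.11 beside 0.09 over all tested genes. Mcmbp, which binds MCM subunits outside the ring, had 59.8 TPM in replicate 1 and 55.4 TPM in replicate 2. Mcmdc2, known from meiotic recombination, was higher at 5.07 TPM in replicate 1 and 1.54 TPM in replicate 2, from 195 counts in replicate 1 and 54 in replicate 2. Mcm8, which acts in recombination repair, was higher at 1.96 TPM in replicate 1 and 1.30 TPM in replicate 2. Mcm3ap, named for binding Mcm3, was the lower one, with a log2 ratio of -0.17 that turned to 0.19 under junction scaling.

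Of 13 origin firing genes, whose products turn loaded rings into forks, 9 were higher and 0 lower, with a median of 0.39. Over all tested genes 27.2% were higher and 16.9% lower. Topbp1, which brings firing factors together, had 40.3 TPM in replicate 1 and 28.2 TPM in replicate 2. Gins3, a subunit of the GINS complex of the active helicase, had 1.96 TPM in replicate 1 and 0.707 TPM in replicate 2. Recql4, a helicase that takes part in origin firing, was not called, with 1.82 TPM in replicate 1 and 2.28 TPM in replicate 2. The 3 fork protection genes were all higher, with a median of 0.84, among them Clspn at 2.80 TPM in replicate 1 and 1.31 TPM in replicate 2.

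The calls in the next 4 lists stand beside 27.2% of all tested genes higher and 16.9% lower. Of 12 clamp loaders and partners 10 were higher and 1 was lower, with a median of 0.49. Rfc2, of the complex that opens Pcna, had 44.4 TPM in replicate 1 and 31.8 TPM in replicate 2. Its large subunit Rfc1 was the lower one, with 14.9 TPM in replicate 1 and 16.6 TPM in replicate 2, and its log2 ratio of -0.15 turned to 0.21 under junction scaling. Of 15 polymerase and RPA genes 9 were higher and 1 was lower. Pole, the leading-strand polymerase, had 6.66 TPM in replicate 1 and 3.73 TPM in replicate 2, while Pold1, of the lagging-strand polymerase, was lower at 6.34 TPM in replicate 1 and 8.35 TPM in replicate 2. Nucleotide supply genes were higher in 5 of 6 cases with none lower. Rrm2, the regulated subunit of ribonucleotide reductase, had 30.2 TPM in replicate 1 and 14.5 TPM in replicate 2. Of 12 E2F and S-phase cyclin genes 9 were higher and 0 lower. Ccne2, a cyclin of S-phase entry, had 3.75 TPM in replicate 1 and 1.68 TPM in replicate 2, and the repressor E2f4, the most abundant, was not called at 54.8 TPM in replicate 1 and 59.2 TPM in replicate 2.

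**Figure D5:**
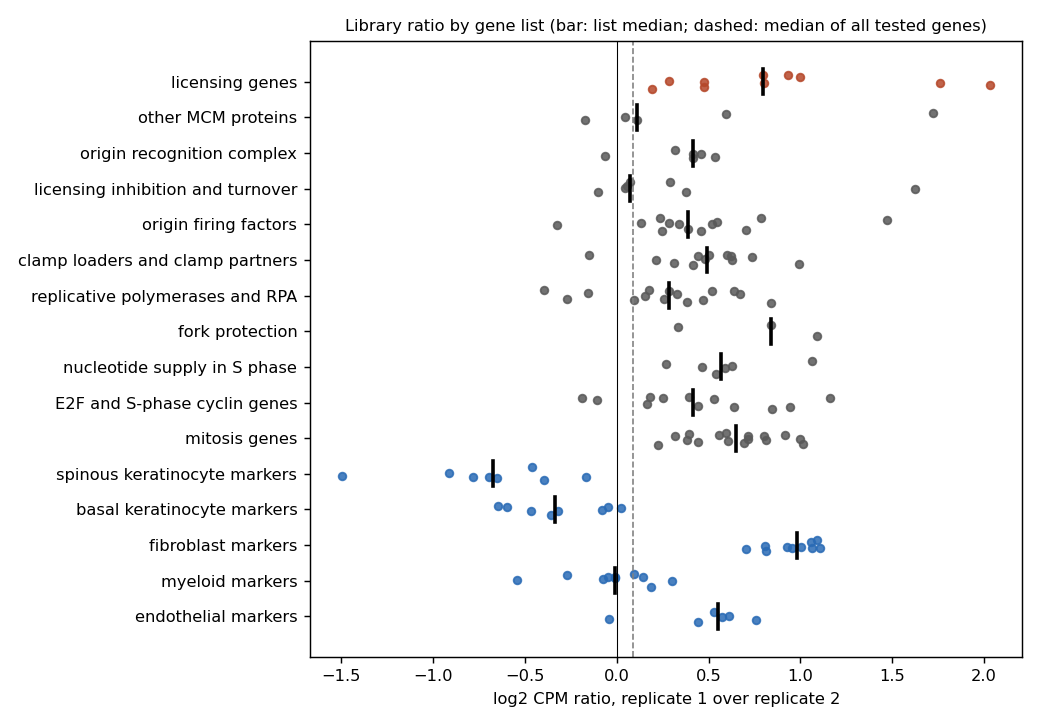
Log2 CPM ratio of replicate 1 over replicate 2 for each gene of the licensing set, the replication lists, the mitosis list and the marker lists, with a bar at each list's median and a dashed line at the median of all tested genes (0.09). The licensing median is 0.80, the fibroblast median 0.98 and the spinous median -0.67.

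Mitosis genes moved between the libraries with the licensing genes, as did fibroblast and endothelial markers, while by library totals keratinocyte markers moved the other way and myeloid markers were split. The 10 members summed to 383 CPM in replicate 1 and to 228 CPM in replicate 2, a ratio of 1.68. The 16 mitosis genes summed to 615 CPM in replicate 1 and to 383 CPM in replicate 2, a ratio of 1.60. All 16 were higher in replicate 1 by the binomial test, beside 27.2% of all tested genes. By edgeR 0 were called, also at an unadjusted p under 0.05. The summed TPM of the licensing genes over that of the mitosis genes was 0.909 in replicate 1 and 0.938 in replicate 2 (mean 0.923 ± 0.0209, SD, n = 2). Pcna, with the smallest library ratio, gave 126 of the 353 TPM in replicate 1 and 110 of the 239 TPM in replicate 2. For the 6 hexamer genes the ratio to the mitosis genes was 0.488 in replicate 1 and 0.404 in replicate 2. For the 5 partners of Mcm6 this ratio was 0.396 in replicate 1 and 0.370 in replicate 2, and for Mcm6 it was 0.0921 in replicate 1 and 0.0343 in replicate 2. As a sum, the partners thus stood at nearly the same level per mitosis RNA in both libraries and Mcm6 did not. Single partners differed, with log2 library ratios from 0.47 to 0.93. The set was chosen on the contrast of Mcm6 with its partners, so this is a description.

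The marker calls that follow are by the binomial test, which called 27.2% of all tested genes higher and 16.9% lower. The 10 fibroblast markers summed to 14351 CPM in replicate 1 and to 7106 CPM in replicate 2, all 10 higher in replicate 1, a ratio of 2.02. Basal keratinocyte markers, with sums given above, had 1 of 8 higher and 7 lower, with a median log2 ratio of -0.34. That median turned to 0.03 under junction scaling. The junction genes themselves had a median of -0.33 by totals and 0.03 when so scaled, so the turn is no independent check. The 8 spinous markers, all lower, summed to 4320 CPM in replicate 1 and to 7623 CPM in replicate 2. The 10 myeloid markers had 4 higher and 4 lower, with sums of 8275 CPM in replicate 1 and 8861 CPM in replicate 2. In TPM their sum was above that of the basal markers, at 13066 against 9307 in replicate 1 and 14394.5 against 13815.4 in replicate 2. The 6 endothelial markers had 4 higher and 0 lower, with sums of 67.0 CPM in replicate 1 and 44.3 CPM in replicate 2. No marker of these lists was at 0 in either library. The part of these cell types in the licensing ratios was not tested.

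Genes that share sequence or position with the members bear on how far single counts can be read. No transcript of another gene aligned over 300 bases or more with the first-numbered transcripts of Mcm6, Mcm2, Mcm3, Mcm5, Mcm10 or Cdt1. Longer forms were not searched, and for Mcm6 the searched transcript had 2910 bases against a deposited length of 4431. The pseudogene Pcna-ps2 matched Pcna at 99.2% over 781 bases and had 179 counts in replicate 1 and 117 in replicate 2, so reads may be split between them. Gm5487 matched Mcm7 at 97.7% over 2157 bases and had 3 counts in replicate 1 and 2 in replicate 2. Gm9430 matched Cdc6 at 95.2% over 1528 bases, and Gm9577 matched Mcm4 at 91.1% over 1861 bases. Both pseudogenes had 0 counts in each library. Tested protein-coding neighbours of the members numbered 20. Among them Il17f, next to Mcm3, had 10 counts in replicate 1 and 0 in replicate 2, and over the 19 with counts in both libraries the median log2 ratio was 0.09, with a range of -0.36 to 0.87. Next to Mcm6, Lct had 32 counts in replicate 1 and 16 in replicate 2, which was not called, and Dars had 1167 counts in replicate 1 and 720 in replicate 2, a log2 ratio of 0.56. Prkdc, which starts beside Mcm4, had 1847 counts in replicate 1 and 1559 in replicate 2. Ap4m1 overlaps Mcm7 and had 857 counts in replicate 1 and 823 in replicate 2, and without a stated strand setting shared reads cannot be told apart. The genes nearest to Mcm6 in log2 TPM over the 2 libraries were Cpz, with 30.1 TPM in replicate 1 and 9.86 TPM in replicate 2, Rgs5, with 27.2 TPM in replicate 1 and 9.62 TPM in replicate 2, and Ear2, with 27.5 TPM in replicate 1 and 11.3 TPM in replicate 2.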

How the data were processed

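Read counts and a length in bases for each gene were deposited for 2 libraries. They were made with featureCounts on build mm39, per the submitters' processing notes. Libraries were sequenced in pairs of 150 bases after ribosomal RNA depletion, per the labels' protocols. The aligner, annotation release, strand setting and treatment of multi-mapping reads were not given in the sources used here.

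CPM used the total of all gene counts and TPM the deposited length. Library ratios (replicate 1 over replicate 2) were tested for 23690 genes with 10 or more counts in total by the exact binomial test, in which the expected share is that of the library totals, and p was adjusted by Benjamini-Hochberg (threshold 0.05). The alternative was the exact test of edgeR 4.0.16 (R 4.3.3) with a dispersion fitted without groups, which the 2 libraries' own differences enlarge. Intervals are exact (Clopper-Pearson, 95%). Further alternatives were TMM, DESeq2 1.42.0 size factors, scaling to junction genes, other lengths, another count filter and leaving out a library. Scripts (Python 3.11.15, scipy 1.17.1) were tested on simulated data. Transcripts similar to the first-numbered transcript of each member were sought with blastn 2.17.0 in GENCODE transcripts on GRCm38. Neighbours and promoters came from RefSeq tables on GRCm38.p6. Protein sequences were not used here.

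The members and lists were chosen with earlier results of these data known. Named are all members, the highest and lowest gene of each list by mean TPM, the largest and smallest ratio in replication lists, 3 genes nearest to Mcm6 and neighbours. Some genes that the rule names are covered by counts only. Xist and Uty were named after their values were seen.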

Additional observations from a re-analysis of the deposited data

How the results depend on the processing

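No paired analysis was possible because the series holds 1 group. By edgeR's exact test the members called higher in replicate 1 numbered 1, beside 10 by the binomial test, and the other replication genes called higher numbered 0, beside 55. The other replication genes called lower numbered 5 by TMM, 5 by DESeq2 size factors, 0 by junction scaling and 0 by edgeR, beside 3. In CPM the licensing over mitosis ratio was 0.609, beside 0.923 in TPM. Leaving out a library, the members' summed level ranged from 228 to 383 CPM, the log2 ratio of Mcm6 over its partners from -1.08 to 0.26, and the licensing over mitosis ratio from 0.909 to 0.938. All 10 members were higher under TMM, DESeq2 and junction scaling, while some other directions turned. Of the 23690 tested genes TMM called 5068 higher and DESeq2 size factors 5071. Junction scaling added 0.37 to every log2 ratio and called 14112 higher, so a member higher by totals could not turn there. The mean log2 ratio of Mcm6 over its partners was -0.41 by deposited length and 0.14 by the first-numbered transcripts. By the longest annotated transcripts it was -0.39 and with no length scaling -0.02, each mean with an SD of 0.95 (n = 2). In CPM the licensing over mitosis ratio was higher in replicate 1 (0.622, against 0.595 in replicate 2), and in TPM lower. Junction scaling turned the basal marker median to 0.03, the same as the median of the junction genes under that scaling. Among the members depth limits Cdc6 the most, with 98 counts in replicate 2.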

Other observations

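Published cell-cycle lists, added after seeing the data, gave the same direction outside the members. Of 37 S-phase genes that are not members 29 were higher and 1 lower in replicate 1 by the exact binomial test (median log2 ratio 0.57), beside 27.2% of tested genes higher. Of 54 G2/M genes 48 were higher and 1 lower, with a median of 0.45. edgeR's exact test called 0 of either list, and at an unadjusted p under 0.05 it had 8 S-phase genes and 0 G2/M genes higher. Over the 23690 tested genes, 1702 had such a p in either direction. Among the 40 largest ratios of the detected genes stood, beside Mcm6 and Cdc6, the replication and cell-cycle genes Fbxo5 (an inhibitor of the anaphase-promoting complex) at a log2 ratio of 1.91, Esco2 (which acetylates cohesin) at 1.89 and Exo1 (an exonuclease of mismatch repair) at 1.67, with Dtl and Mcmdc2. These were picked out after their values were seen.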
